A study of Mus musculus with 12 samples.

Results

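Gal encodes the precursor of galanin, a neuropeptide, and is 1 gene of the 35856 listed in the deposited tables of mural granulosa cells (MGCs) and cumulus cells. It was chosen by its measured rise in the cumulus cells of Sphk1/2gc-/- mice, the largest there on the log2(FPKM + 1) scale, so its values in cumulus cells are given as a description with no test. FPKM, fragments per kilobase of transcript and per unit of library size, is thus a level per length that can be set between genes. Mice lacked Sphk1 in all cells, and Sphk2, flanked by loxP sites, was deleted by a Cre under the Fshr promoter, which is active in granulosa cells. They were compared with WT mice of the C57/BL6 strain. Immature females had been primed with eCG and then given hCG, a substitute for the ovulatory LH surge, and cells of both kinds were collected 2 h after hCG. There were 4 groups of 3 libraries, 12 in all. The sources do not state whether the WT mice were littermates or carried the Cre, nor whether a library stands for 1 animal or a pool, so p-values measure the spread between libraries, which may be technical.

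Galanin is cut from a larger precursor in the secretory pathway, amidated at its end and released from dense vesicles. It acts on the G protein-coupled receptors GALR1, GALR2 and GALR3, and is best known from hypothalamus, gut and peripheral nerve, where oestrogen, nerve injury and the cytokine LIF raise its transcript. Cumulus cells are the granulosa cells that surround the oocyte, while MGCs line the follicle wall. Sphingosine kinases 1 and 2, the products of the deleted genes, make sphingosine-1-phosphate, a signalling lipid.

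Gal (ENSMUSG00000024907) lies on the minus strand of chromosome 19, from base 3409915 to base 3414544 in GRCm38, with 6 exon blocks that no other annotated gene overlaps. The 250 bases before its annotated start are shown because the change in its transcript is what follows. They are RefSeq sequence of GRCm38.p6 at chr19:3414545-3414794, read 5′ to 3′ on the strand of Gal, and capitals mark motif matches. A stretch of 30 bases just inside the gene, at chr19:3414502-3414531, is shown for the match it holds.
before the start: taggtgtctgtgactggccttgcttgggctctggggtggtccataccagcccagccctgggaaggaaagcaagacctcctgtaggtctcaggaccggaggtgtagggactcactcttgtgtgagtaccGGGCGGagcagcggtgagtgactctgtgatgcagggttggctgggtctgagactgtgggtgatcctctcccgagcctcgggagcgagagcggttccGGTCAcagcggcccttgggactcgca
inside the gene: agccggTGACGcggcagctcccactgggca

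The capitals mark a GC box (GGGCGG), the core of an oestrogen response element (GGTCA) and the core of a cAMP response element (TGACG). The first base of the GC box is at position -122 from the start, that of GGTCA at -26 and that of TGACG at 20. Over both strands of the window from 250 bases before to 50 after the start, 35.7% of 32851 RefSeq promoters held the GC box, 40.5% GGTCA and 20.8% TGACG. The letters of the full cAMP response element (TGACGTCA, in 1.79% of promoters), AP-1 (TGANTCA, 7.81%), STAT (TTCNNNGAA, 8.30%) and E box (CANNTG, 72.3%) motifs were not in this window of Gal. Such matches describe letters and not binding.

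The libraries were of similar depth and the targeted genes did not all follow the labels. The spacing of the FPKM values gave 16100359 to 19761600 reads per library. Of the cumulus libraries, WT library 3 listed 27541 genes above 0 and the other 5 listed 18788 to 19289. In MGCs Sphk1 had 132, 151 and 37 reads in the WT libraries and 35, 45 and 9 in those labelled Sphk1/2gc-/-, but in cumulus cells it had 7, 6 and 8 reads in WT and 7, 43 and 51 in those labelled Sphk1/2gc-/-. Sphk1 shares exon sequence with Gm29292, and values per gene do not show which exons the reads came from. Sphk2 overlapped between the genotypes in both cell types (log2 fold change 0.07, adjusted p = 0.751 by limma in cumulus cells). Sphk1 reads in 2 of the 3 cumulus libraries labelled Sphk1/2gc-/- thus go against the label, and the libraries are called here by their labels.

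In WT cumulus cells Gal was a moderate transcript with little spread, and in the cumulus libraries labelled Sphk1/2gc-/- it was among the most abundant. The WT libraries 1 to 3 held 5.93, 6.48 and 5.92 FPKM. The libraries labelled Sphk1/2gc-/- held 109, 270 and 396 FPKM. The genotypes were far apart, since the lowest Sphk1/2gc-/- library was 16.8 times the highest WT library. Mean levels were 6.11 ± 0.323 FPKM for WT and 259 ± 144 FPKM for the Sphk1/2gc-/- label (SD, n = 3), a ratio of 42.3. These values rest on 68 to 83 reads per WT library and 1464 to 5408 reads per Sphk1/2gc-/- library. By counting error alone, the 95% interval was 4.61 to 7.52 FPKM in WT library 1 and 104 to 115 FPKM in Sphk1/2gc-/- library 1. In a mixture of cells, fewer cells of a type and less RNA per cell cannot be told apart, so a level says nothing of how many cumulus cells held the transcript.

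**Figure D1:**
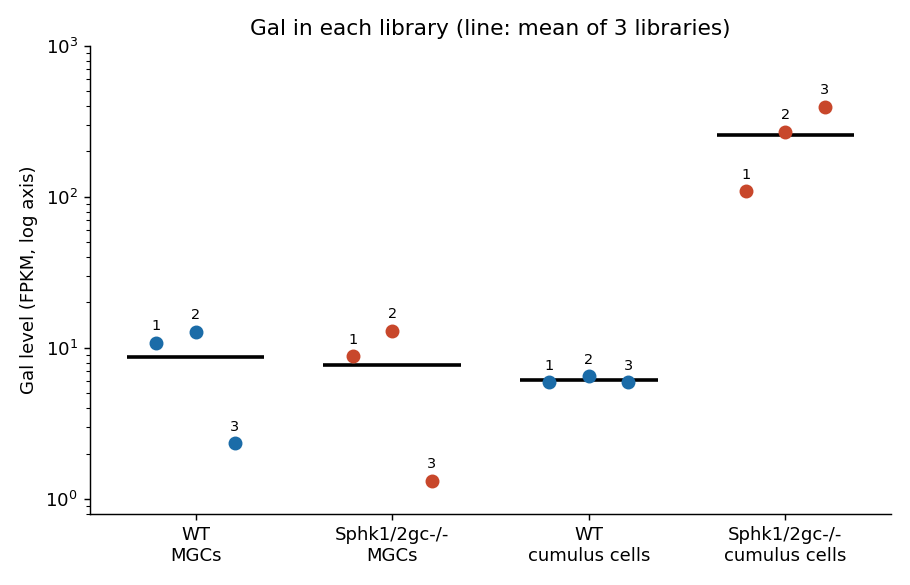
Gal level in FPKM (log axis) in each of the 12 libraries, by cell type and genotype label; numbers are library numbers and each line is the mean of 3 libraries. The cumulus libraries labelled Sphk1/2gc-/- lie between 109 and 396 FPKM, all others between 1.32 and 13.0, and library 3 is the lowest of both MGC groups.

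Ranked within each library, Gal was near the top in those labelled Sphk1/2gc-/-. It stood at rank 4730, 4587 and 4792 of the 33137 listed genes in the WT cumulus libraries. In the Sphk1/2gc-/- libraries it stood at rank 488, 190 and 130. The same held when each library was scaled so that its levels share the same total (transcripts per unit of total, TPM), with 15.0 to 16.4 TPM in WT and 302, 693 and 1045 TPM in Sphk1/2gc-/-.

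Being first among the rises depends on how a rise is measured. The difference in log2(FPKM + 1) was 5.00 for Gal, ahead of BC002163 at 4.82 and the MHC class II chain H2-Eb1 at 4.44, among the 12205 transcripts that were tested, those averaging 0.5 FPKM or more for either genotype. With a pseudocount of 0.1 in place of 1 the difference was 5.19 and Gal came 4th, after H2-Aa, H2-Eb1 and H2-Q6. By the difference in mean FPKM (252) it came at rank 31, behind more abundant transcripts led by Fth1. By the ratio of mean FPKM it came at rank 50, and for 42 of those ahead of it the WT libraries were all at 0. BC002163 was also higher in the MGCs labelled Sphk1/2gc-/- (log2 fold change 4.08, adjusted p = 0.00682 by limma), a call that was lost without WT library 1 (adjusted p = 0.0968), WT library 2 (0.0538) or Sphk1/2gc-/- library 2 (0.0669). H2-Eb1 in MGCs stood at 3.46 with an adjusted p of 0.440, and was called higher without Sphk1/2gc-/- library 3 (4.95, adjusted p = 0.00346) and without library 3 of both genotypes (4.77, adjusted p = 0.00331).

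**Figure D2:**
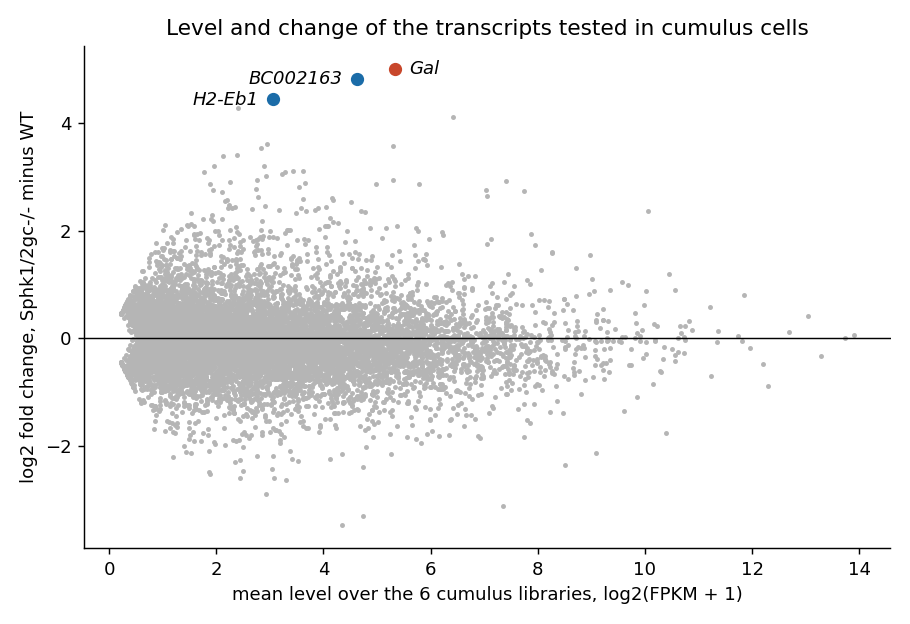
Log2 fold change (Sphk1/2gc-/- minus WT, on log2(FPKM + 1)) against the mean of log2(FPKM + 1) over 6 cumulus libraries, 1 point for each of 12205 transcripts. Gal at 5.00 lies above BC002163 at 4.82 and H2-Eb1 at 4.44.

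The 3 cumulus libraries labelled Sphk1/2gc-/- differed among themselves in Gal more than in almost any transcript of its level. The SD of log2(FPKM + 1) was 0.950 for Gal. The median was 0.226 over 364 transcripts, Gal included, whose mean was within 1 log2 unit of it. Of these, 2 had an SD at least as large, Gal itself counted. In WT cumulus cells the SD of Gal was 0.0648, and 3506 of 3892 transcripts of like level (90.1%), Gal included, had at least that. Relative to the WT mean, Gal stood 3.95, 5.26 and 5.80 log2 units higher in libraries 1, 2 and 3. The order was that of the other 510 transcripts called higher, whose medians were 1.22, 1.44 and 1.60. Of these 510, 312 (61.2%) were lowest in library 1 of the Sphk1/2gc-/- cumulus cells, and of 470 called lower, 323 (68.7%) were least low there. Here and below, called means an adjusted p of at most 0.05 (limma on log2(FPKM + 1), Benjamini-Hochberg over all transcripts tested) together with at least a 2-fold change on that scale.

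In MGCs no difference in Gal between the genotypes was detected, and the libraries of both genotypes lay in overlapping ranges. WT libraries 1 to 3 held 10.8, 12.8 and 2.33 FPKM. Those labelled Sphk1/2gc-/- held 8.78, 13.0 and 1.32 FPKM. Library 3 was the low one in both genotypes, on 28 and 17 reads where the other 4 had 106 to 157. Mean levels were 8.65 ± 5.56 FPKM for WT and 7.71 ± 5.92 FPKM for the Sphk1/2gc-/- label (SD, n = 3). The log2 fold change was -0.26 (SE 0.791, 95% interval -2.14 to 1.62, adjusted p = 0.953 by limma), rank 12214 of 15279 tested transcripts. The interval is wide, and without library 3 of both genotypes the value was -0.13 (SE 0.195, adjusted p = 0.677). With the library number as a block it was -0.26 (SE 0.175, 95% interval -0.70 to 0.19). Without Sphk1/2gc-/- library 3 alone it was 0.52 (adjusted p = 0.671).

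The low level in library 3 of the MGCs was larger for Gal than for nearly all transcripts. Among WT libraries, the mean of libraries 1 and 2 was 5.06 times library 3, and among those labelled Sphk1/2gc-/- it was 8.25 times. Both libraries of number 3 lay below the other 4 for 1720 of 15279 transcripts (11.3%) and above them for 2167 (14.2%). Only 23 transcripts, Gal included, were lower by at least the gap of Gal (the lowest of the other 4 libraries was 3.77 times the higher of the library 3 values). Of 26 other neuropeptides and peptide hormones tested in MGCs, 13 had both libraries of number 3 below the other 4, among them Penk, the precursor of the enkephalins, at 60.2, 61.7 and 30.6 FPKM in the WT libraries and 69.7, 70.9 and 22.9 in the Sphk1/2gc-/- libraries. Within each genotype, leukocyte markers in MGCs were also lowest in library 3. Sums were 308, 250 and 162 FPKM over WT libraries 1 to 3 and 86.8, 108 and 20.8 FPKM over Sphk1/2gc-/- libraries. Granulosa markers were instead highest in library 3 of both genotypes. They summed to 10050, 9727 and 16093 FPKM in WT and to 12886.5, 12023 and 13159 FPKM in Sphk1/2gc-/-. So did stroma and pericyte markers stand highest there, at 113, 108 and 170 FPKM in WT and 89.7, 76.8 and 100 in Sphk1/2gc-/-. Cumulus expansion markers summed to 1372, 1255 and 1077 FPKM in WT and to 2191, 1882 and 187 FPKM in the other genotype. Theca markers were highest in WT library 3 (220 FPKM, the others 134 and 146) and lowest in Sphk1/2gc-/- library 3 (63.2 FPKM, the others 148 and 152). What sets these libraries apart is not given in the sources, and the part of these markers in the level of Gal was not tested.

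The tables of MGCs and cumulus cells were made separately, so levels set across them carry no test. Mean Gal in the WT libraries was 8.65 FPKM in MGCs and 6.11 FPKM in cumulus cells, with the cumulus values inside the range of the MGC ones. Transcripts as short as Gal, with at most 1000 exon bases, had a median log2 difference of 0.30 between the WT cumulus and MGC tables, and transcripts over 4000 bases one of -0.90. Within cumulus cells the same short transcripts had a median of -0.33 between the genotypes. The part of transcript length in the level of Gal was not tested.

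The other ligands of the family and the receptors were at or near the limit of detection in both cell types, and none of them had a sufficient level to be tested. Galp, the galanin-like peptide, had at most 1 read in any library. Spx, spexin, a ligand of GALR2 and GALR3, was at 0.156 to 0.308 FPKM in MGCs. In cumulus cells Spx was at 0.210, 0.157 and 0.0963 FPKM in the WT libraries and 0.0299, 0.0571 and 0 in the Sphk1/2gc-/- libraries, on at most 6 reads. The receptor Galr1 summed to 1 read over all MGC libraries and about 2 over all cumulus libraries. Galr2 was at 0.0971 to 0.385 FPKM in MGCs and summed to 8 reads over the 6 cumulus libraries, and Galr3, listed for cumulus cells, had 1 read, in a gene that shares exons with Gcat. Kiss1r, the kisspeptin receptor and a relative of the galanin receptors, reached 0.459 FPKM in MGCs and summed to 10 reads in cumulus cells, with exons shared with R3hdm4. At this depth a count of 0 allows up to 3 reads, so receptor transcripts at a lower level were not detectable. Of 16 genes that couple these receptors to their signals, 0 of 10 tested in cumulus cells were called, where 8.04% of all tested transcripts were, and 0 of 11 in MGCs, where 0.0393% were. The one with the highest level was Rgs2, a regulator of G protein signalling, at 1353 to 1734 FPKM in WT libraries of cumulus cells and 1225 to 1568 in Sphk1/2gc-/-.

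Of the enzymes that process precursors such as that of galanin, 1 of 9 tested in cumulus cells was called, and it rose. This was Pcsk5, a proprotein convertase, at 8.33, 8.50 and 10.1 FPKM in the WT libraries and 23.7, 18.8 and 19.8 in the Sphk1/2gc-/- libraries (log2 fold change 1.13, SE 0.156, adjusted p = 0.00312). The share called higher among all transcripts tested was 4.19%, and the median over the 9 was 0.23 against -0.06 over all. Cpe, carboxypeptidase E, had the highest level, at 153 to 173 FPKM in WT libraries and 160 to 219 in Sphk1/2gc-/- cumulus cells, and was not called (0.23, adjusted p = 0.333). In MGCs 0 of 12 were called, where 0.0393% of all transcripts were.

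Of the genes of granins and regulated secretion, Vamp8, a vesicle SNARE, was the 1 called of 16 tested in cumulus cells. It was at 5.89, 5.56 and 4.07 FPKM in the WT libraries and 10.3, 15.5 and 17.1 in the Sphk1/2gc-/- libraries (log2 fold change 1.29, SE 0.216, adjusted p = 0.00584). The list's median was 0.04. With a pseudocount of 0.1 it had 5 calls, where all transcripts had 825 higher and 849 lower of 12205. Without Sphk1/2gc-/- library 1 it had 3, where all had 651 higher and 654 lower of 12335. Of 6 peptide-degrading enzymes tested, Ece1, endothelin-converting enzyme, was the 1 called, at 5.43, 6.81 and 8.86 FPKM in the WT libraries and 17.0, 13.9 and 17.6 in the Sphk1/2gc-/- libraries (1.11, SE 0.193, adjusted p = 0.00662). Without WT library 1 its change was 0.96, below 2-fold. The shares of 6.25% and 16.7% stand beside 8.04% of all transcripts in cumulus cells. In MGCs, where 0.0393% of all were called, 0 of 19 and 0 of 11 members of these lists were.

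Several other neuropeptides and peptide hormones were called in cumulus cells, with 6 higher and 1 lower of 23 tested (30.4%), where the background in either direction is 8.04%. The list has 68 genes, of which 55 are listed for cumulus cells. Because the list was made with earlier results of these data known, its share is a description. Of the 15 members that averaged 0.5 FPKM or more in both genotypes, 4 were called higher and 1 lower (33.3%), where 8.09% of the 10606 such transcripts were called in either direction. The median over the 23 was 0.36. With a pseudocount of 0.1 the list had 11 calls, where all transcripts had 825 higher and 849 lower of 12205.

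Edn2, endothelin 2, known in the ovary for the contraction of the follicle at ovulation, was at 0.850, 0.342 and 2.22 FPKM in the WT libraries and 5.30, 7.61 and 13.4 in the Sphk1/2gc-/- libraries of cumulus cells (log2 fold change 2.21, SE 0.376, adjusted p = 0.00626). Penk was at 5.66, 7.97 and 12.1 FPKM in the WT libraries and 26.7, 47.6 and 49.2 in the Sphk1/2gc-/- libraries (2.15, SE 0.305, adjusted p = 0.00344). For both, as for Gal, the genotypes did not overlap and library 1 was the lowest of the Sphk1/2gc-/- libraries. Such separation was found in 42.3% of all transcripts tested in cumulus cells, and in 11 of these 23. Of the 510 transcripts other than Gal called higher, 61.2% were lowest in that library.

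Prok2, prokineticin 2, was at 0.0324, 0 and 0.0891 FPKM in the WT libraries and 1.27, 2.11 and 3.45 in the Sphk1/2gc-/- libraries (1.60, SE 0.232, adjusted p = 0.00363). Rln3, relaxin 3, was at 0, 0 and 0.0898 FPKM in the WT libraries and 1.17, 1.52 and 2.80 in the Sphk1/2gc-/- libraries (1.42, SE 0.210, adjusted p = 0.00394). Both were close to 0 in WT and passed the filter on level only through the Sphk1/2gc-/- libraries, a filter that favours a difference. Nmb, neuromedin B, named after its value was seen as the single member called lower, where 3.85% of all transcripts were, had 3.21, 4.70 and 4.45 FPKM in the WT libraries and 1.07, 1.02 and 0.986 in the Sphk1/2gc-/- libraries (-1.33, SE 0.159, adjusted p = 0.00181). The most abundant peptide precursor was Nts, neurotensin, at 84.4, 44.5 and 136 FPKM in the WT libraries and 55.5, 33.2 and 78.0 in the Sphk1/2gc-/- libraries of cumulus cells, which was not called (-0.60, adjusted p = 0.335).

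In MGCs 0 of 26 members of this peptide list were called, where 1 of all 15279 transcripts was called higher (0.00654%) and 5 were called lower (0.0327%). Those counts turn on library 3. Without Sphk1/2gc-/- library 3 the MGC calls were 116 higher and 54 lower of 15215 tested. Without library 3 of both genotypes they were 191 higher and 286 lower of 15433 tested, with 4 of the peptide list among them. Gal was in none of them.

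Of the factors known from other tissues to regulate Gal, 2 of 22 tested in cumulus cells were called, both higher, which at 9.09% is near the background of 8.04%. These were Lif, the cytokine, and Socs3, a feedback inhibitor that LIF and related cytokines induce. Lif was at 0.0143, 0 and 0.0785 FPKM in the WT libraries and 0.561, 0.989 and 2.22 in the Sphk1/2gc-/- libraries (log2 fold change 1.06, SE 0.247, adjusted p = 0.0191). Its call was lost without WT library 1 (1.05, adjusted p = 0.0682), WT library 2 (1.04, adjusted p = 0.0614) or Sphk1/2gc-/- library 3 (0.77). Socs3 was at 0.129, 0.423 and 0.177 FPKM in the WT libraries and 1.85, 3.41 and 4.87 in the Sphk1/2gc-/- libraries (1.76, SE 0.255, adjusted p = 0.00363). Both passed the filter on level only through the Sphk1/2gc-/- libraries, which stood in the order of Gal, with library 1 lowest and library 3 highest. The medians of the 510 other transcripts called higher stood in the same order (1.22, 1.44 and 1.60). Junb, an AP-1 subunit, was at 14.8, 6.96 and 36.4 FPKM in the WT libraries and 29.5, 58.2 and 53.0 in the Sphk1/2gc-/- libraries and was not called (1.46, adjusted p = 0.0740), but passed without WT library 3 (2.04, adjusted p = 0.0161). Fos, its partner and the most abundant of the list in cumulus cells, overlapped between the genotypes (0.12, adjusted p = 0.773). The list had 5 calls without WT library 3, where all transcripts had 571 higher and 529 lower of 12252. It had 4 without Sphk1/2gc-/- library 1, where all had 651 and 654 of 12335. It had 1 without WT library 1, WT library 2 or Sphk1/2gc-/- library 3, where all had 391 to 456 higher and 350 to 440 lower. In MGCs 0 of 25 were called, where 0.0393% of all transcripts were. Without Sphk1/2gc-/- library 3, 1 was called, where all had 116 higher and 54 lower of 15215.

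**Figure D3:**
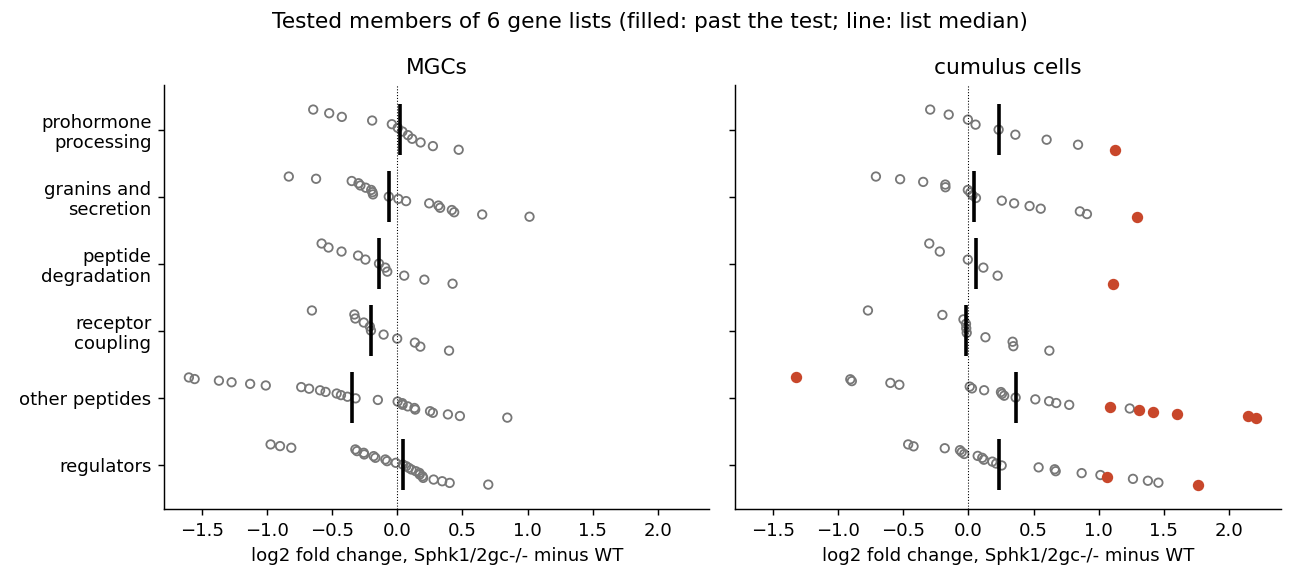
Log2 fold change (Sphk1/2gc-/- minus WT, on log2(FPKM + 1)) of the tested members of 6 gene lists in MGCs and cumulus cells, 1 circle each; filled circles passed the test and lines are list medians. No member passed in MGCs, and in cumulus cells the list of other peptides holds 7 of the 12 filled circles.

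The nearest genes on chromosome 19 had no member called in cumulus cells. Within 200 kb, the transcripts tested in cumulus cells were Cpt1a, Mrpl21, Ppp6r3 and the antisense Gm48683, and 0 of them were called. Tesmin, whose end lies 2092 bases from that of Gal, reached 0.227 FPKM in cumulus cells, too low to be tested. Cpt1a, which carries fatty acids into mitochondria, was at 3.93, 3.57 and 3.73 FPKM in the WT libraries and 6.43, 5.27 and 6.39 in the Sphk1/2gc-/- libraries (0.56, adjusted p = 0.0260), past the adjusted p but under 2-fold. Ppp6r3, a phosphatase subunit on the other side, had a log2 fold change of -0.11 (adjusted p = 0.609), and Mrpl21, a mitochondrial ribosomal protein, one of -0.24 (adjusted p = 0.388). Ighmbp2 and Lrp5 reached 0.407 and 0.0436 FPKM in cumulus cells, and Mir6984, Gm23940 and Gm48696 were also below the level tested. Of 10 neighbours tested within 500 kb, 1 was called, Aldh3b1, an aldehyde dehydrogenase at the far edge, which fell by 1.70 on the log2 scale (adjusted p = 0.00537). The share of 10% is near the 8.04% of all transcripts. In MGCs 0 of 13 neighbours were called, where 0.0393% of all were.

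**Figure D4:**
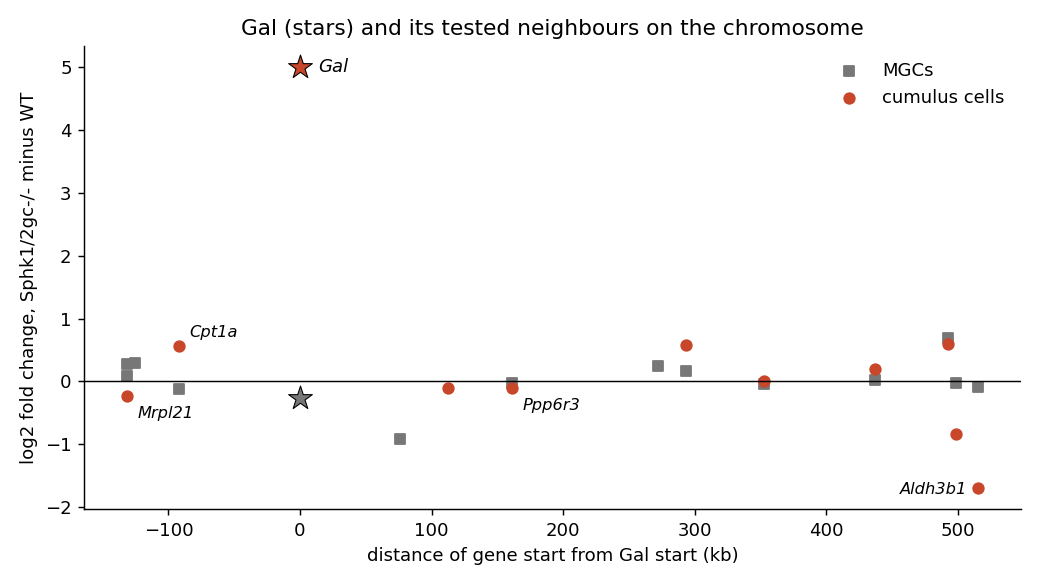
Log2 fold change (Sphk1/2gc-/- minus WT, on log2(FPKM + 1)) of Gal (stars) and its tested neighbours against the distance between gene starts in kb, with circles for cumulus cells and squares for MGCs. Gal stands at 5.00 in cumulus cells and at -0.26 in MGCs, while Cpt1a, the nearest tested in cumulus cells by gene start, is at 0.56 and Aldh3b1, farthest away, at -1.70 in cumulus cells.

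The transcripts whose pattern over the 12 libraries was most like that of Gal were Gpat3 (Pearson r = 0.982 on log2(FPKM + 1)), Tcf7l2 (0.980), Ifi202b (0.978), Gm11468 (0.977) and Pxdc1 (0.967), among 8471 compared. These r values are descriptions, since the points share libraries and their groups, and the cell types were normalised separately. Gpat3, an enzyme of glycerolipid synthesis that shares exon sequence with 2 other annotated genes, was at 3.49, 2.88 and 4.73 FPKM in the WT libraries and 27.3, 27.1 and 48.8 in the Sphk1/2gc-/- libraries of cumulus cells. Tcf7l2, a transcription factor of the Wnt pathway, was at 4.41, 4.28 and 4.67 FPKM in the WT libraries and 12.3, 20.4 and 19.9 in the Sphk1/2gc-/- libraries. Ifi202b, an interferon-inducible gene, was at 1.76, 3.54 and 1.71 FPKM in the WT libraries and 17.5, 31.5 and 31.3 in the Sphk1/2gc-/- libraries. All 5 were low in library 3 of both MGC groups, as Gal was, which follows from picking them by likeness over these libraries. None was called in MGCs, where 0.0393% of all transcripts were. Ifi202b in MGCs was at 3.82, 2.95 and 0.699 FPKM in the WT libraries and 4.83, 4.18 and 0.0978 in the Sphk1/2gc-/- libraries. The difference in cumulus cells was smaller than that of Gal in each, at 2.88, 1.73, 3.05, 2.44 and 2.42 log2 units in the order given.

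**Figure D5:**
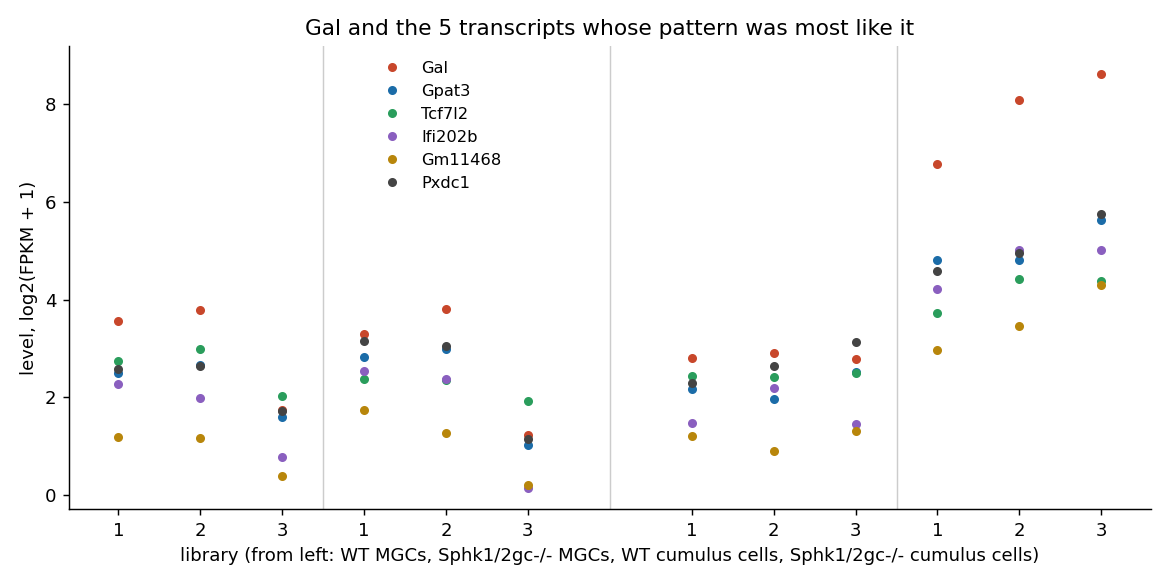
Level, as log2(FPKM + 1), of Gal and 5 transcripts in each of the 12 libraries, 1 point per library, with vertical lines between groups. The 6 transcripts are low in library 3 of both MGC groups, and stand higher in the cumulus libraries labelled Sphk1/2gc-/-, Gal the most, up to 8.63. The 5 were picked for this likeness to Gal.

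The labelled cell types were checked against marker lists, several of which moved with the genotype in cumulus cells. Of 10 granulosa markers, all tested in both cell types, 3 were lower in cumulus cells labelled Sphk1/2gc-/-, where 3.85% of all transcripts were. Cyp19a1, the aromatase, was at 45.3, 57.4 and 83.7 FPKM in the WT libraries and 16.9, 8.90 and 8.11 in the Sphk1/2gc-/- libraries (-2.38, adjusted p = 0.00236), and the nuclear receptor Nr5a2 (-1.50) and the inhibin and activin subunit Inhba (-1.35) also fell. Of 4 cumulus expansion markers, Ptx3 (1.73) and Tnfaip6 (1.58), which hold the matrix together, were higher, where 4.19% of all transcripts were, and their list summed to 309 to 702 FPKM in WT libraries and 1077 to 1332 in Sphk1/2gc-/-. Of markers of neurons and chromaffin cells, which also make galanin, Th, Dbh and Stmn2 were at 0.0263 FPKM or less in every cumulus library and Prph was at 0. These do not stand for the whole list. Other markers of neurons, glia and chromaffin cells were detected, and log2 fold changes of those tested ran from -0.31 to 0.91. Among those tested, a change at an adjusted p of at most 0.05 by limma, but under 2-fold, was found. Uchl1, among them, was not called (0.09, adjusted p = 0.841 by limma).

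Markers of the theca, the layer outside the follicle wall, summed to 25.8 to 57.7 FPKM in WT libraries of cumulus cells and 10.5 to 13.1 in those labelled Sphk1/2gc-/-, with 2 of 3 lower, Aldh1a1 (-2.24) and Cyp17a1 (-1.24). Over all transcripts tested in cumulus cells 3.85% were called lower, the share that stands beside each count of lower members here. Leukocyte markers summed to 4.88 to 54.9 FPKM in WT libraries and 6.91 to 52.3 in Sphk1/2gc-/- with 1 of 4 lower, S100a9 (-2.20). The 4 went both ways, up to 1.44 for Lyz2, which was not called (adjusted p = 0.364 by limma). Stroma and pericyte markers summed to 8.58 to 39.4 FPKM in WT libraries and 7.72 to 25.4 in Sphk1/2gc-/- with 1 of 4 lower, Lum (-1.22). The calls of Cyp17a1 and Lum were lost when any library other than WT library 2 was left out (limma adjusted p 0.0544 to 0.114 and 0.0688 to 0.142), and that of S100a9 without Sphk1/2gc-/- library 3 (adjusted p = 0.0632). Endothelial markers summed to 0.283 to 0.943 FPKM in WT libraries and 0.192 to 0.262 in Sphk1/2gc-/-. Oocyte markers had 0 of 4 called, where 8.04% of all transcripts were. Their sums did not overlap, at 4.25 to 8.14 FPKM in WT libraries and 2.74 to 2.90 in Sphk1/2gc-/-. Of the 4, 3 were lower in every Sphk1/2gc-/- library than in any WT library. Such separation, in either direction, was found in 42.3% of all transcripts tested. None of the lists of theca, stroma, leukocyte and oocyte markers had a member called higher in cumulus cells, where 4.19% of all transcripts were. With only 3 or 4 members tested in each, a count of 0 says little at that share. No endothelial marker reached the level tested. The part of cell composition in the level of Gal was not tested.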

How the data were processed

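RNA-seq of MGCs and cumulus cells was deposited by the authors as 2 tables of FPKM per gene, 1 per cell type. The submitters' processing notes name HISAT2 and GRCm38. The counting tool and annotation are not given in the sources used here, and the library kit does not mark strand. In 90.5% to 92.0% of entries the deposited FPKM was within 0.02 of a whole number of reads, given the exon lengths of GENCODE M21, and this spacing gave the depth of 16100359 to 19761600 reads. Values of Gal were whole for an exon length of 712 bases, against 788 in GENCODE. Counting intervals (exact Poisson, 95%) cover counting error only.

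Values were tested as log2(FPKM + 1) with limma 3.58.1 in R 4.3.3 (empirical Bayes with trend, p-values adjusted by Benjamini-Hochberg), within each cell type, for transcripts averaging 0.5 FPKM or more for either genotype. A fold change on this scale understates the change of low transcripts. Calls required an adjusted p of at most 0.05 and a change of 2-fold or more on this scale. Gal was in the fit over all cumulus transcripts and counts among those called higher, but no p of it is used.

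Deviations of same-numbered libraries of the genotypes had correlations of 0.22, 0.158 and 0.224 over transcripts in MGCs, so the number was also fitted as a block. Unlike numbers ran from -0.232 to 0.155 there. WT library 1 against Sphk1/2gc-/- library 2 was at 0.155, so libraries 1 and 2 were not clearly matched by number. In cumulus cells same numbers had -0.148, -0.0511 and 0.115, and unlike numbers -0.191 to 0.179. Alternatives were another pseudocount, no filter, scaling to the same median, the block, no trend and leaving out libraries. Gal and the gene lists were chosen with earlier results of these data known. Named genes were Gal, its family and receptors, listed genes within 200 kb, for each other list the called members (the 4 with the largest change where there were more) and the most abundant member, the 5 transcripts most like Gal, and the 2 next to it among the rises of transcripts with a mean of at least 5 FPKM. Promoters were from RefSeq. Of the markers of neurons, glia and chromaffin cells, 2 are not reported here, so no count or sum over that list is given.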

Additional observations from a re-analysis of the deposited data

How the results depend on the processing

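Gal was chosen for its rise in cumulus cells and its genotypes were far apart there, so no alternative could change the direction. Its log2 fold change there was between 4.60 and 5.53 when 1 library was left out. It was 5.19 with a pseudocount of 0.1 and 5.05 with libraries scaled to the same median. Its rank moved from 1 to 4 with that pseudocount, 31 by the difference in mean FPKM and 50 by the ratio. Gal in MGCs was never called, but its sign depended on the libraries, from -0.90 to 0.52 when 1 was left out. With the replicate number as a block it was -0.26 (adjusted p = 0.658 by limma). In MGCs the calls were 1 higher and 5 lower of 15279. They were 3 higher with a pseudocount of 0.1, 2 higher after scaling, 0 lower without the filter, and 2 higher and 1 lower with the block. Leaving out 1 library gave 0 to 116 higher and 0 to 54 lower, and leaving out library 3 of both genotypes, chosen after seeing the data, gave 191 and 286. Ptx3 in MGCs, not called and at -0.04 with all libraries, ranged from -0.65 to 1.10 when 1 library was left out and was called higher without Sphk1/2gc-/- library 3 (1.10) and without library 3 of both genotypes (1.02). In cumulus cells the calls, 511 higher and 470 lower, became 825 and 849 with a pseudocount of 0.1, 182 and 198 without the filter, and 1179 and 1546 on the adjusted p alone. Without the filter Edn2, Penk, Prok2, Rln3, Socs3, Lif, Vamp8, Ece1, Cyp19a1, Inhba, Ptx3, Tnfaip6, Cyp17a1, Lum, S100a9, Pxdc1 and Gm11468 were no longer called (adjusted p = 0.0520 to 0.283). Among the named transcripts followed through the alternatives, the replicate block changed no call except those of Cyp17a1 and Lum. These are counted among the theca and stroma markers in cumulus cells (adjusted p = 0.0815 and 0.0525 by limma). How the calls of Nmb and Aldh3b1 fared under the alternatives, the missing filter included, is not given here. Where a value moved, the cause was not tested. Levels under about 3 reads, as for Galr1 in both cell types and Galr3 in cumulus cells, are limited by depth.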
